A study of Homo sapiens with 5 samples.

Results

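The KRAB zinc finger clusters of chromosome 19 were described as 27 bins of 500 kb out of the 119 bins of that chromosome, in 3 matrices of chromosome contacts. The members were chosen by position on the genome build hg19 and not by any measured value: cluster 1 at 11.5 to 12.5 Mb (2 bins), cluster 2 at 19.5 to 24.5 Mb (10 bins), cluster 3 at 36.5 to 38.5 Mb (4 bins), cluster 4 at 44 to 45 Mb (2 bins), cluster 5 at 52.5 to 54 Mb (3 bins) and cluster 6 at 56 to 59 Mb (6 bins). Clusters 1 and 2 lie on the short arm with 12 bins, and clusters 3 to 6 lie on the long arm with 15 bins. All 27 bins passed the coverage filter, as did 86 other bins of chromosome 19, which served as the reference, while 6 were left out.

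Contact maps came from in-solution Hi-C, which joins and sequences DNA ends that lie close together in the nucleus, cut here with the enzyme HindIII in HL60, an established human promyelocytic leukaemia line. The untreated matrix merges 2 libraries, the ATRA matrix (all-trans retinoic acid, which drives HL60 toward granulocytes) holds 1, and the TPA matrix (a phorbol ester, which drives HL60 toward macrophage-like cells) merges 2. The sources used here give neither doses nor treatment times nor the cultures behind the libraries. The matrices held 9632300 to 10628045 contacts, each condition is 1 measurement without replicates, and library and treatment cannot be told apart, so no test was made and every 95% interval covers counting error only.

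KRAB zinc finger genes form the largest family of human transcription factor genes. Each protein pairs an array of C2H2 zinc fingers, which read a DNA sequence, with a KRAB domain that recruits the corepressor TRIM28 and, through it, the histone methyltransferase SETDB1; many members silence retrotransposons. The genes arose by tandem duplication, so they stand in clusters of close relatives, and in many cell types the genes themselves carry the repressive histone mark laid down by SETDB1.

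The gene content of the clusters was described by gene order in RefSeq, between the first and the last landmark gene of each cluster. The landmarks are zinc finger genes chosen beforehand, so a high share was partly fixed by that choice. No coordinates were used, so these stretches need not match the bins. Of the 201 protein-coding genes between those landmarks, 180 (89.6%) were zinc finger genes by symbol, against 87 of the 1250 other protein-coding genes of chromosome 19 (6.96%). The share was 100% in cluster 1 (ZNF627 to ZNF490) and cluster 4 (ZNF45 to ZNF180), 96.3% in cluster 2 (ZNF85 to ZNF254) and 96.6% in cluster 3 (ZNF146 to ZNF573). It was lower in cluster 5 (ZNF432 to ZNF331, 82.9%) and cluster 6 (ZNF71 to ZNF132, 81.0%). Cluster 6 also holds the imprinted genes PEG3 and ZIM2 and the gene of ZNF274, a zinc finger protein that brings SETDB1 to other zinc finger genes. These stretches held 67.4% of all zinc finger genes of the chromosome.

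Promoters of 3 zinc finger genes are shown because their genes lie in cluster 2 and in the regions of chromosomes 7 and 12 that had the most contact with the clusters, described further on; they were chosen after those values were seen. ZNF91, which silences SVA retrotransposons, belongs to cluster 2 (chr19:23395422-23395721, minus strand). ZNF107 lies on chromosome 7 (chr7:64665883-64666182, plus strand) and ZNF268 near the end of chromosome 12 (chr12:133181245-133181544, plus strand). The sequences, from 250 bases before to 50 bases after the gene start, are RefSeq's on build GRCh38.p14, which is not the build of the matrices, and capitals mark each CG dinucleotide, which reads the same on both strands.
ZNF91: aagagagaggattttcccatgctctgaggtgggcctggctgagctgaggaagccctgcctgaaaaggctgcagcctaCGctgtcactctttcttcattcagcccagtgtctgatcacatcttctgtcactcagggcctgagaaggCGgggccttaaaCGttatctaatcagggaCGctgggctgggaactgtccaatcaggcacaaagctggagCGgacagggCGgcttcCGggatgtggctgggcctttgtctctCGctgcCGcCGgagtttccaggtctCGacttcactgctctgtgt
ZNF107: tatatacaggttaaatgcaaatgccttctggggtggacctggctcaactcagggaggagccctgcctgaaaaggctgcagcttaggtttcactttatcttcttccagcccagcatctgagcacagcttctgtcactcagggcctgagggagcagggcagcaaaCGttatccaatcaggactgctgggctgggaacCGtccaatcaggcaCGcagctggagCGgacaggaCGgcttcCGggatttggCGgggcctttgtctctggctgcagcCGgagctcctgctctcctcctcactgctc
ZNF268: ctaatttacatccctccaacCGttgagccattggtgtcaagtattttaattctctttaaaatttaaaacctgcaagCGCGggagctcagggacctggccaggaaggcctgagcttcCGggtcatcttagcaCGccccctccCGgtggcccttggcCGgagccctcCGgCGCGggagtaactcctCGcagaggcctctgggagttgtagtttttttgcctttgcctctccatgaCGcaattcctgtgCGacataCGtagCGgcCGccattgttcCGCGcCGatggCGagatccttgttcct
ZNF91 had 11 CG dinucleotides, ZNF107 had 8 and ZNF268 had 20 in these 300 bases; at least 1 CG is present in 95.8% of all listed promoters. The median was 10 for the 20 promoters of cluster 2 with an entry, 15.5 for cluster 1, 19 to 25 for the other 4 clusters, and 21 for other protein-coding genes of chromosome 19. Cluster 2 thus had the lowest median of the 6, and at this bin size the matrices say nothing of single promoters.

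The clusters met each other more often than their distance and coverage predict in all 3 matrices, and most in TPA. Over the 280 bin pairs that join bins of different clusters, 2.5 to 47.0 Mb apart, 2109 contacts were counted in untreated, 2494 in ATRA and 4722 in TPA cells. Expected contacts were the mean at the same distance on chromosome 19 times the balancing weights of both bins. Untreated cells had 1.58 times (1.52 to 1.65) that number, ATRA-treated cells 2.43 times (2.34 to 2.53) and TPA-treated cells 3.31 times (3.22 to 3.41). Relative to untreated cells the value was 1.54 times as high in ATRA (1.45 to 1.63) and 2.09 times as high in TPA (1.99 to 2.20), and the intervals of the 3 matrices do not overlap. A contact made in more cells and a contact made more often in each cell cannot be told apart in such bulk data.

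The other bins of chromosome 19 were split by the sign of their compartment score in the summed matrix into 58 A bins, the open and gene-active class, and 28 B bins, the class of repressed chromatin. In the untreated matrix alone only 21 of these 28 B bins scored below 0, against 28 in either treatment, so the reference is partly A there. At the same distances, contacts of cluster bins with these other B bins were 1.07, 1.19 and 1.37 times the expected number in untreated, ATRA and TPA cells. Contacts of other B bins with each other were at 1.08, 1.16 and 1.18 times. Clusters thus met other clusters more than they met B chromatin of the same chromosome: the ratio of the former to the latter was 1.48 untreated (1.40 to 1.56), 2.05 with ATRA (1.95 to 2.16) and 2.41 with TPA (2.32 to 2.51). Contacts of cluster bins with A bins were at 0.742, 0.478 and 0.607 times the expectation, so they were lowest in ATRA.

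The arms differed between the treatments. Clusters on the same arm had 1.75, 3.07 and 3.39 times the expected contacts in untreated, ATRA and TPA cells. For clusters on different arms the values were 1.42, 1.86 and 3.24. ATRA was therefore 1.75 times as high as untreated on the same arm (1.62 to 1.90) but 1.31 times as high across the centromere (1.20 to 1.43), while TPA was 1.94 times (1.80 to 2.08) and 2.28 times as high (2.12 to 2.46). Across the centromere, other B bins had 0.731, 0.911 and 0.754 times the expected contacts with each other, under the expectation where the clusters were above it. Relative to untreated cells these were 1.25 times as high in ATRA (1.07 to 1.45) and 1.03 times in TPA (0.886 to 1.20). The ATRA interval overlaps that of the clusters, so the higher value across the centromere in ATRA was not particular to them. In untreated cells, contacts of clusters across the centromere were close to those of A bins with each other, at 1.05 times their value (0.979 to 1.13).

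**Figure D1:**
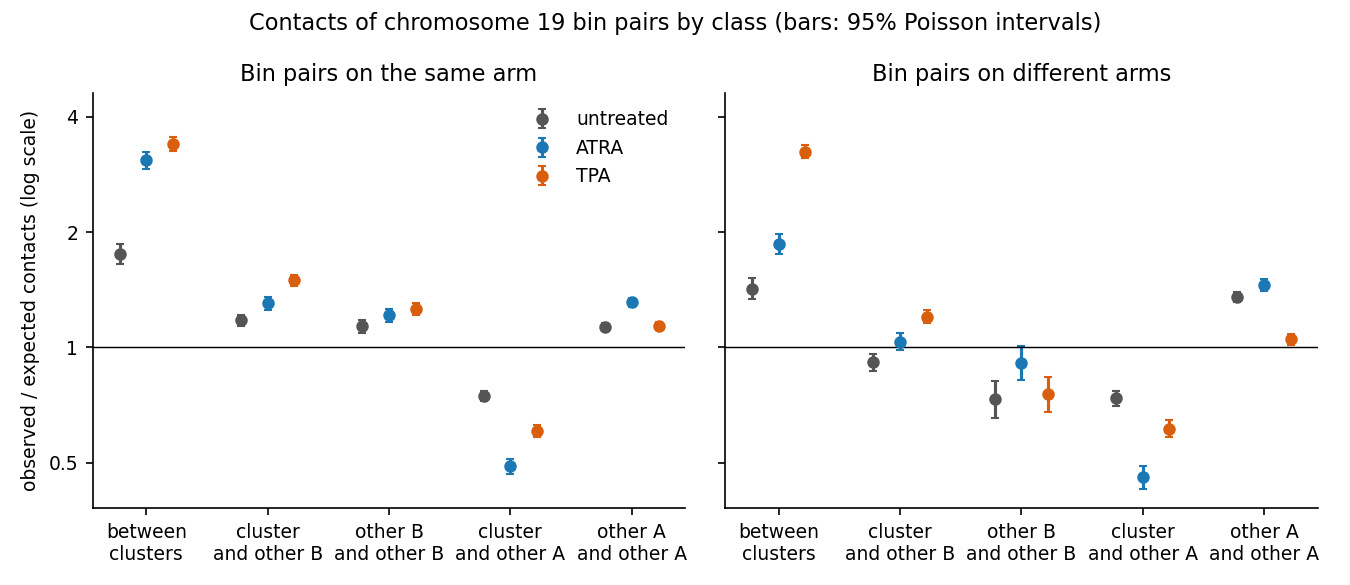
Observed over expected contacts (log scale) of chromosome 19 bin pairs 2.5 to 47.0 Mb apart, for 5 classes of pair and 3 conditions, on the same arm (left) and on different arms (right); bars are 95% Poisson intervals of the counts. Pairs between clusters are the highest of these classes in each condition, at 3.39 on the same arm and 3.24 on different arms in TPA, where the other plotted classes on different arms lie between 0.613 and 1.20.

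Single bin pairs showed the same order. Of the 280 pairs between clusters, 207 (73.9%) had a higher observed over expected value in ATRA than in untreated cells, against 46.3% of the 5620 bin pairs of chromosome 19 at those distances. In TPA 257 pairs (91.8%) were higher, against 43.6% of all such bin pairs. For pairs of a cluster bin with another B bin the shares were 56.9% and 66.5%, and for pairs with an A bin 29.9% and 37.9%.

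By pairs of clusters, all 15 were above the expectation in each matrix, with the interval above it in 10 pairs of untreated cells and in 15 of either treatment. All 15 were also higher than untreated in ATRA and in TPA, with the interval of the ratio above 1 in 12 and 14 pairs. In the summed matrix clusters 3 and 6 met most, with 199, 312 and 542 contacts in untreated, ATRA and TPA cells, which is 2.21, 4.37 and 5.33 times the expected number. Clusters 3 and 5 followed at 2.70, 4.40 and 4.68 times (133, 177 and 257 contacts). Next came clusters 1 and 3, across the centromere, at 1.79, 3.59 and 3.35 times (47, 75 and 85 contacts). Cluster 3, with the landmarks ZNF146 to ZNF573, thus took part in all 3 of the highest pairs.

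The lowest pairs were clusters 2 and 4, 1 and 6, and 1 and 4. Clusters 2 and 4 had 70, 87 and 139 contacts, at 1.11, 1.56 and 1.97 times the expected number. Clusters 1 and 6 stood at 1.04, 1.68 and 2.63 times (60, 68 and 139 contacts). Clusters 1 and 4 stood at 1.33, 2.09 and 2.02 times on only 25, 28 and 39 contacts, and the interval of their ratio to untreated included 1 in ATRA (0.885 to 2.81) and with TPA (0.897 to 2.62). All 3 low pairs include a cluster of 2 bins.

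Pairs of cluster 2 with clusters 3, 5 and 6 set ATRA and TPA apart. Cluster 2 is the largest, lies next to the centromere, and gave most of the contacts counted across it. With cluster 6 it had 291 contacts in untreated, 284 in ATRA and 1025 in TPA cells, or 1.16, 1.51 and 3.38 times the expected number, so that TPA was 2.92 times as high as untreated (2.56 to 3.34) and ATRA 1.31 times (1.10 to 1.54). With clusters 3 and 5 the ATRA values were 1.12 (0.937 to 1.34) and 1.07 (0.863 to 1.32) times untreated, and the TPA values 1.92 (1.65 to 2.24) and 2.05 (1.73 to 2.45) times. Its other pairs did not part the treatments beyond their intervals: with cluster 1 ATRA was 1.76 times untreated (1.38 to 2.26) and TPA 1.98 times (1.58 to 2.50), and with cluster 4 the ratios were 1.41 (1.01 to 1.95) and 1.77 (1.32 to 2.39). The pairs with clusters 3 and 5, with the pair of clusters 1 and 4, were the 3 whose ATRA interval included 1.

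**Figure D2:**
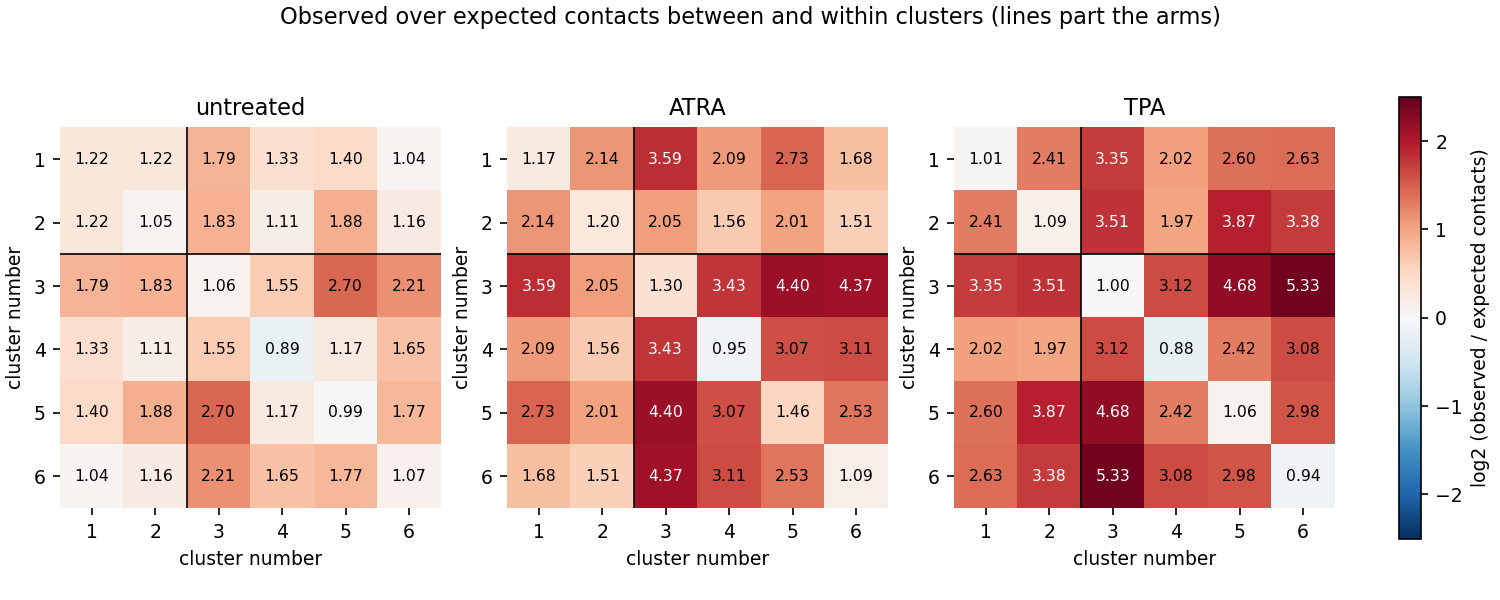
Observed over expected contacts for each pair of clusters (numbers in the cells, colour on a log2 scale) in untreated, ATRA and TPA cells; rows and columns are the clusters in order along the chromosome, and the black lines part the short arm (1 and 2) from the long arm (3 to 6). The cell of clusters 3 and 6 reads 2.21, 4.37 and 5.33, and that of clusters 2 and 6 reads 1.16, 1.51 and 3.38, while the diagonal stays between 0.880 and 1.46.

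Each cluster was also set against its 3 kinds of partner at 2.5 Mb or more. Cluster 3 was highest with the other clusters (1.99, 3.24 and 4.06 times the expected number in untreated, ATRA and TPA cells), and cluster 1 was lowest in the untreated and TPA matrices (1.27 and 2.56, with 2.27 in ATRA). Cluster 2 had the least contact with A bins (0.444, 0.304 and 0.396). Cluster 6 had the most with other B bins (1.45, 1.59 and 1.92), and still more with the other clusters (1.54, 2.40 and 3.44). With A bins, clusters 1, 3 and 6 were at 0.911, 0.968 and 0.921 times the expectation in untreated cells, at 0.530, 0.508 and 0.776 in ATRA, and at 0.631, 0.652 and 0.899 in TPA. The TPA interval of cluster 6 (0.852 to 0.947) overlapped its untreated one (0.878 to 0.966).

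Within clusters the contacts were near the expectation for chromosome 19. Over the 71 bin pairs inside a cluster, at most 4.5 Mb apart, 6014, 3853 and 4040 contacts gave 1.05 (1.03 to 1.08), 1.19 (1.15 to 1.23) and 1.02 (0.991 to 1.05) times the expected number in untreated, ATRA and TPA cells. With raw contacts and a correction for distance only, the untreated value was 0.802 and lay under the expectation. With the distance mean of all chromosomes the values were 1.66, 2.01 and 1.48, and without adjacent bins 1.45, 1.41 and 1.37, so their level depended on the setting. Other B bins at such distances on the same arm had 0.802, 0.733 and 0.870 times the expected contacts, and A bins 1.13, 1.30 and 1.21. Clusters were thus between the other classes in all 3 matrices, at 1.31, 1.62 and 1.17 times the value of other B bins and 0.933, 0.919 and 0.845 times that of A bins. By cluster the highest value was that of cluster 5 in ATRA (1.46, 366 contacts) and the lowest that of cluster 4 in TPA (0.880, 110 contacts in 1 bin pair). The 16 pairs of bins 2.5 to 4.5 Mb apart, all inside cluster 2 or cluster 6, were highest in untreated cells, at 2.28 times the expected number, with 1.25 in ATRA and 1.74 in TPA.

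The compartment score is the leading pattern of contact preference along a chromosome, in standard deviations (SD), with positive values for A and negative for B; its sign was set by contact with the gene-rich chromosomes 17 and 22. Cluster bins lay on the B side: 26 of 27 were below 0 in untreated cells and 27 of 27 in either treatment. Over all 5630 bins of the genome that passed the filter the shares below 0 were 50.8%, 54.6% and 59.8%. The medians of the cluster bins were -0.98, -1.25 and -1.29, lower than those of the other B bins at -0.59, -0.82 and -1.13, while A bins stood at 1.20, 1.03 and 0.81. Since other bins were classed by the summed score itself, their medians describe that choice.

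The 6 clusters differed in untreated cells and lay close together in the treated matrices. Cluster 2 was low throughout, with medians of -1.26, -1.31 and -1.35. Cluster 5 stood at -1.12, -1.30 and -1.33, and cluster 6 at -0.80, -1.05 and -1.13. The medians of these clusters were on the B side of the score in each matrix. Cluster 3 had -0.68 in untreated cells and -1.22 in either treatment. Clusters 1 and 4 were close to 0 in untreated cells, at -0.19 and -0.30, with -1.22 and -1.18 in ATRA and -1.21 and -1.18 in TPA. The 2 smallest clusters thus had the largest differences between conditions, and the largest cluster the smallest. The lowest cluster bin stood at -1.40, -1.39 and -1.41 in untreated, ATRA and TPA cells. Cluster 2 was therefore near the lowest scores already in untreated cells, while clusters 1 and 4 were far from them.

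The bin with the highest score in untreated cells was 11.5 to 12.0 Mb, in cluster 1, at 0.03, and it also had the largest downward difference, with -1.18 in ATRA and -1.10 in TPA. The lowest in untreated cells was 20.0 to 20.5 Mb in cluster 2 at -1.40, with -1.35 and -1.39 in the treated matrices. The largest upward difference was 0.20 in ATRA, at 57.0 to 57.5 Mb in cluster 6, and 0.13 in TPA, at 19.5 to 20.0 Mb in cluster 2. No cluster bin was higher by 0.5 or more, against 10.2% of all bins in ATRA and 9.11% in TPA. The rest of chromosome 19 was alike, with 0 of the 58 A bins in either treatment. Of the 28 other B bins, 1 was that much higher in ATRA and 0 in TPA, so this absence is not particular to the clusters. Scores were lower by 0.5 or more in 7 of 27 cluster bins in ATRA, against 13.3% of all bins, and in 8 of 27 with TPA, against 25.7%. On chromosome 19 itself 12 of the 58 A bins and 5 of the 28 other B bins were lower by that much in ATRA. The share of cluster bins in ATRA, 25.9%, was 51.9% with raw contacts, 66.7% with an eigenvector for each arm and 41.2% without cluster 2. The TPA share is near the background, and 22 of the 58 A bins and 15 of the 28 other B bins were lower by that much there, so the TPA count is not a result about the clusters.

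**Figure D3:**
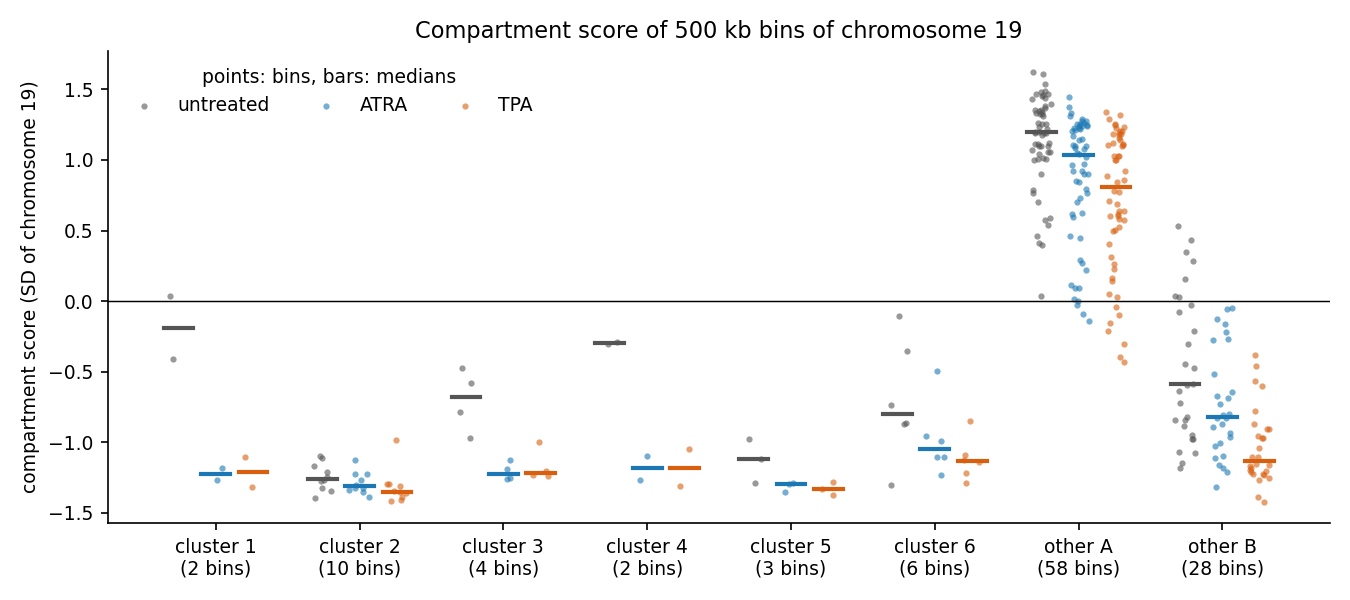
Compartment score (in SD of chromosome 19) of each 500 kb bin, by cluster and for the other A and B bins, in untreated, ATRA and TPA cells; points are bins and bars are medians. Clusters 1 and 4 have medians of -0.19 and -0.30 in untreated cells and between -1.22 and -1.18 in the treated matrices, where all 27 cluster bins are below 0.

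Many cluster borders showed as steps in the score. The bins just outside cluster 1 stood at 1.18 and 0.53 in untreated cells, against 0.03 and -0.41 just inside. In ATRA the outside bins stood at 0.22 and -0.69 and the inside bins at -1.18 and -1.27. In TPA they stood at 0.26 and -0.91 outside and -1.10 and -1.32 inside. At the left edge of cluster 6 the score went from 1.19 outside to -0.11 inside in untreated cells, from 0.62 to -0.49 in ATRA and from 0.50 to -0.85 in TPA. At the right edge of cluster 5 there was no such step, since the bin outside stood at -1.15, -1.16 and -1.24 and the bin inside at -1.29, -1.35 and -1.29. The left edge of cluster 4 had none in untreated cells either, with -0.48 outside and -0.29 inside. The bins left and right of cluster 4, at -0.48 and 0.54 in untreated cells, stood at -0.96 and -0.0007 in ATRA. In TPA they stood at -1.22 and -0.43. The lower scores of clusters 1 and 4 in the treated matrices were thus shared by the bins beside them.

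Contacts with other chromosomes gave another reading of the compartment, one that uses no contact within chromosome 19. The contact with 2339 A bins and with 3178 B bins of the other chromosomes was set against an expectation from coverage. The log2 ratio of A over B was 0.11 over all clusters in untreated cells (0.09 to 0.13), -0.24 in ATRA (-0.27 to -0.22) and -0.16 in TPA (-0.19 to -0.14), on the A side in untreated cells and on the B side in both treated matrices. The difference to untreated cells was -0.35 with ATRA (-0.39 to -0.32) and -0.27 with TPA (-0.30 to -0.24). For other B bins it was -0.28 and -0.26, and for A bins -0.19 and -0.11. The value was thus lower than untreated in all classes of chromosome 19, and in TPA it was about the same in clusters and other B bins.

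By this measure cluster 2 alone was on the B side in untreated cells with its interval below 0, at -0.25 (-0.29 to -0.21), and it stood at -0.36 and -0.27 in ATRA and TPA. Clusters 1 and 4 were on the A side in untreated cells, at 0.52 and 0.48. In ATRA cluster 1 stood at -0.10 and the interval of cluster 4 (-0.09 to 0.09) included 0, and in TPA they stood at 0.04 and 0.16. These were the smallest clusters, as for the score. Clusters 3 and 6 had 0.26 and 0.28 in untreated cells, -0.18 and -0.21 in ATRA and -0.14 and -0.15 in TPA. Cluster 5 had 0.03, -0.30 and -0.24.

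By bins, 12, 25 and 22 of 27 were below 0 in the untreated, ATRA and TPA matrices, against 19.5%, 41.6% and 37.2% of the 113 bins of chromosome 19. Of the other B bins, 10, 22 and 20 of 28 were below 0, and of the A bins 0 of 58 in each matrix. The score and this measure correlated at 0.907, 0.911 and 0.937 over the 113 bins, which share their libraries and their coverage. The untreated matrix is the one where both readings part: nearly all cluster bins were B by the score of the whole chromosome, and 44.4% by contacts with other chromosomes. With an eigenvector for each arm the share was 40.7%, but in untreated cells the long-arm eigenvector correlated with the summed score at only 0.492, against 0.945 in ATRA and 0.977 in TPA.

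**Figure D4:**
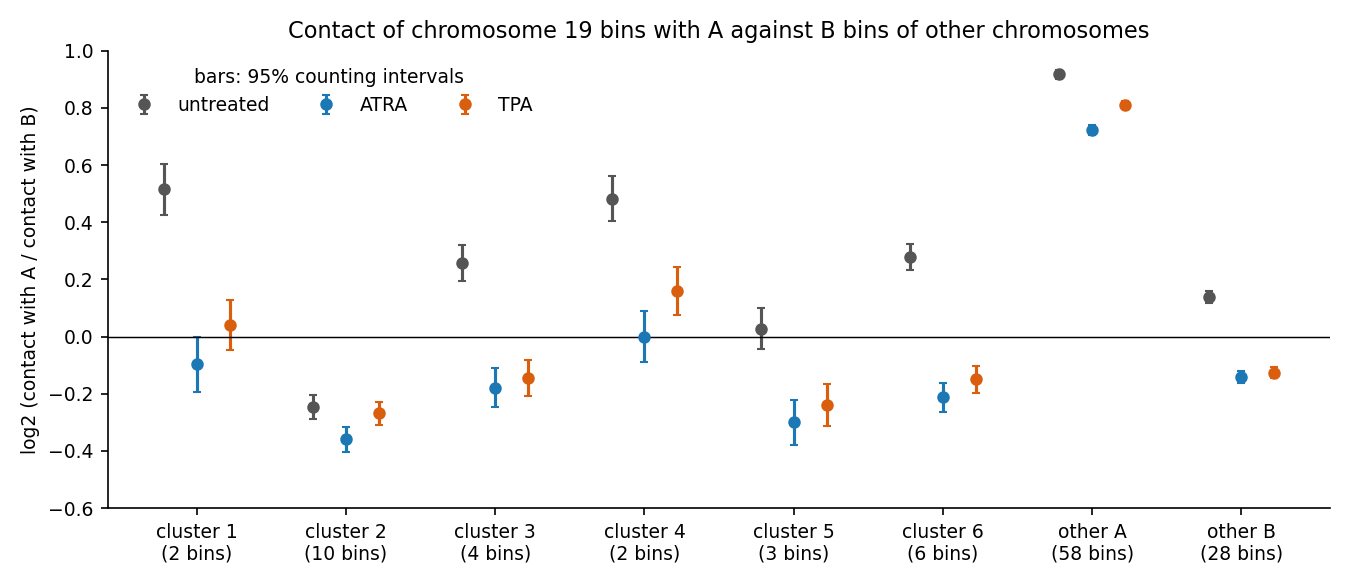
Log2 ratio of contact with A over contact with B bins of other chromosomes, each over its expectation from coverage, for each cluster and for the other A and B bins of chromosome 19; bars are 95% counting intervals. Cluster 2 is below 0 in all 3 matrices, clusters 1 and 4 stand at 0.52 and 0.48 in untreated cells, and every cluster is lower in ATRA than in untreated cells.

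Coverage, the number of contacts of a bin, had a median of 3651 over the cluster bins in untreated, 2947 in ATRA and 3460 in TPA cells. That is 1.05, 0.901 and 0.998 times the median bin of the genome. Relative to the total of each matrix the median log2 ratio to untreated was -0.18 in ATRA and -0.04 in TPA, against 0.08 and 0.03 over all bins. The clusters were not the lowest class: A bins of chromosome 19 were at -0.48 and -0.18, and other B bins at -0.11 and -0.05.

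A log2 ratio of -0.25 or lower was found in 9 of 27 cluster bins in ATRA, against 8.37% of all bins, and in 0 of 27 in TPA, against 0.337%. On the same chromosome 56 of the 58 A bins and 8 of the 28 other B bins were that low in ATRA, so the share of the clusters was far under that of the A bins and near that of the other B bins. None of the 9 was in cluster 2, and 5 were in cluster 6. In the clusters other than cluster 2 all 17 bins were lower than untreated in both treatments, while in cluster 2 4 of 10 were lower in ATRA and 1 of 10 in TPA. The median log2 ratio of cluster 2 was 0.02 in ATRA, under the 0.08 of all bins, and 0.18 in TPA, and for contacts with other chromosomes alone it was -0.12 and 0.10. Its last bin, 24.0 to 24.5 Mb, had the highest ratio in both treatments, with 2844, 3184 and 3376 contacts (log2 ratios of 0.30 and 0.28), and was the only cluster bin at 0.25 or higher, against 3.27% and 0.444% of all bins. The lowest ratio in ATRA was -0.38 at 36.5 to 37.0 Mb in cluster 3 (3508 contacts untreated and 2437 after ATRA), and with TPA -0.19 at 44.0 to 44.5 Mb in cluster 4. That last bin had the most contacts of all cluster bins in untreated cells (4758, then 3346 in ATRA and 4089 in TPA), and the fewest were at 20.5 to 21 Mb in cluster 2 (2372, 2194 and 2567).

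Contacts with other chromosomes made up 66.4% of all contacts of the clusters in untreated cells (66.1 to 66.7, exact binomial), 72.7% in ATRA (72.4 to 73.0) and 69.0% in TPA (68.7 to 69.3). Over the other bins of the chromosome the shares were 67.7%, 76.8% and 75.0% (for the A bins alone 63.5%, 73.3% and 72.7%). A contact between 2 bins of the same set was counted once, so the share tends to rise with the number of bins in a set. The shares of the 27 cluster bins and the 86 other bins therefore cannot be set against each other directly, nor can those of clusters of unlike size. The 28 other B bins, a set of nearly the same size as the 27 cluster bins, stood at 68.3%, 76.9% and 73.4%, above the clusters in each matrix. The 58 A bins had a lower share than the clusters in untreated cells although their set is larger. Cluster 2 had the highest share in untreated cells at 72.9%, with 74.9% in ATRA and 71.2% in TPA. Cluster 1 had the lowest at 57.4%, with 68.9% and 66.1%. All 6 clusters had a higher share in ATRA than in untreated cells. In TPA clusters 2, 4 and 6 did not, and the intervals of clusters 4 (63.8% and 63.2%) and 6 (63.7% and 62.8%) overlapped.

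The clusters met some chromosomes more than others. In the summed matrix 8 of the 22 other chromosomes had an interval above the expectation and 10 an interval below it. The highest were chromosome 21 at 1.39 times the expected contacts (1.43, 1.35 and 1.38 in untreated, ATRA and TPA cells), chromosome 18 at 1.28 (1.20, 1.34 and 1.31) and chromosome 20 at 1.20 (1.40, 0.967 and 1.20). The lowest were chromosome 6 at 0.914, chromosome 14 at 0.933 and chromosome 15 at 0.941. Other B bins of chromosome 19 stood at 1.43 with chromosome 21, 1.26 with 18, 1.29 with 20 and 0.887 with 6, so the clusters shared these preferences with them.

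Chromosomes 17 and 22, which set the sign of the score and are named here after their values were seen, differed most between conditions. With chromosome 22 the clusters had 1.44, 0.838 and 1.05 times the expected contacts in untreated, ATRA and TPA cells. With chromosome 17 the values were 1.25, 0.846 and 0.929. The ratios of ATRA to untreated were 0.582 for chromosome 22 and 0.678 for chromosome 17, lower than the 0.629 and 0.782 of other B bins and the 0.808 and 0.844 of A bins. The intervals of clusters and other B bins overlapped for chromosome 22 (0.528 to 0.640 and 0.587 to 0.675) and did not for chromosome 17 (0.633 to 0.725 and 0.741 to 0.826).

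Zinc finger genes also stand in smaller groups on other chromosomes. A list of 13 such regions (17 bins on 11 chromosomes) was drawn up from knowledge of their positions on hg19 and was not checked against an annotation of that build. Earlier results of these data were known when it was drawn up. The values and ranks of the listed bins below therefore describe them and are no independent test. The clusters had 264 contacts with these bins in untreated, 230 in ATRA and 346 in TPA cells, or 1.54, 1.62 and 2.04 times the expected number. In the summed matrix the value was 1.74 (1.63 to 1.87), and it was 1.52 times (1.40 to 1.64) that of the bins within 2 Mb on either side. A bins of chromosome 19 had 1.27 times the expected contacts with the same regions and 0.904 times those of the neighbouring bins (0.853 to 0.958), and other B bins 1.20 times and 1.07 times (0.994 to 1.16). In the summed matrix the clusters were thus the one class of the 3 whose interval over the neighbouring bins lay above 1. By matrix the intervals of the clusters over the neighbouring bins were 1.21 to 1.59, 1.24 to 1.67 and 1.50 to 1.92 in untreated, ATRA and TPA cells. Other B bins stood at 0.970, 1.18 and 1.09, with the interval above 1 in ATRA (1.03 to 1.35).

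All 6 clusters were above the expectation with these regions in the summed matrix. Cluster 2 was highest at 2.00 (1.80 to 2.23), with 1.56, 1.85 and 2.54 in untreated, ATRA and TPA cells. Cluster 5 followed at 1.72, cluster 3 at 1.69 and cluster 6 at 1.57, and clusters 1 and 4 stood at 1.48. For cluster 2 the value over the neighbouring bins was 1.88 (1.66 to 2.13), and for clusters 1 and 4 it was 1.14 and 1.22, with intervals that include 1.

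Of the 5517 bins of other chromosomes, the 4 with the most contact with the clusters over expectation in the summed matrix were all on the list. They were chromosome 7 at 64.0 to 64.5 Mb (85 contacts, 4.80 times the expected number, 3.83 to 5.94), chromosome 12 at 133.5 to 134.0 Mb (95 contacts, 4.12 times), chromosome 4 at 0.0 to 0.5 Mb (136 contacts, 3.11 times) and chromosome 7 at 63.5 to 64.0 Mb (52 contacts, 2.66 times). The next bin, on chromosome 21 and not on the list, stood at 2.35. For A bins of chromosome 19 the same 4 bins ranked 2761, 153, 661 and 4445, and for other B bins 582, 25, 300 and 2552. Over the whole list 14 of 17 bins were above 1, against 47.4% of all bins, and 8 had an interval above 1, against 7.47%. For other B bins of chromosome 19 the first count was nearly the same, with 13 of the 17 listed bins above 1 and 5 with an interval above 1, so the clusters stood out by the 4 highest bins rather than by that count.

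The region of chromosome 7 from 63.5 to 65.0 Mb holds ZNF92, ZNF107, ZNF117, ZNF138 and ZNF273. Its bin at 64.0 to 64.5 Mb had 14, 22 and 49 contacts with the clusters in untreated, ATRA and TPA cells, or 2.40, 4.14 and 7.47 times the expected number, and ranked 20, 1 and 1 among the 5517 bins. Of its 85 contacts 64 (75.3%) were with cluster 2. The bins of that cluster starting at 21.5, 22.5 and 23.5 Mb had 13, 17 and 14 contacts with it, which is 21.5, 26.7 and 25.7 times the expected number, and 21 of the 27 cluster bins had at least 1. The genes of cluster 2 and those of this region include close relatives, and the part that wrongly placed reads of near-identical copies may have in these contacts was not tested.

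The end of the long arm of chromosome 12 holds ZNF10, whose KRAB domain is widely used as a synthetic repressor, with ZNF26, ZNF84, ZNF140 and ZNF268. It had 32, 21 and 42 contacts in untreated, ATRA and TPA cells, 3.62, 3.38 and 5.17 times the expected number, with ranks of 1, 2 and 2. Of its 95 contacts 14 were with the last bin of cluster 6, starting at 58.5 Mb, at 15.0 times the expected number. In the summed matrix A bins of chromosome 19 met this chromosome end at 2.59 times and other B bins at 1.82 times, so an excess there was not particular to the clusters. Clusters 1, 3, 4, 5 and 6 met it at 7.30, 5.69, 4.72, 6.45 and 4.71 times the expected number in the summed matrix, and cluster 2 at 1.60 (0.854 to 2.74). Cluster 2 was thus the lowest with chromosome 12 and the highest with chromosome 7, where it stood at 5.50 times (4.44 to 6.73) over the region of 3 bins.

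The end of the short arm of chromosome 4 holds ZNF141, ZNF595 and ZNF721. It had 39, 33 and 64 contacts in untreated, ATRA and TPA cells, at 2.43, 2.67 and 4.14 times the expected number, and every cluster was above the expectation there in the summed matrix, between 2.21 for cluster 6 and 3.59 for cluster 4. Its 136 contacts fell in 26 of the 27 cluster bins. The lowest regions of the list were chromosome 3 at 44.5 to 45.0 Mb (11 contacts, 0.596 times the expected number, 0.298 to 1.07), chromosome 7 at 148.5 to 149.5 Mb (0.965) and chromosome 18 at 32.5 to 33.0 Mb (0.982). Without the 3 regions with the most contact (on chromosomes 4, 7 and 12), the list stood at 1.25, 1.25 and 1.22 times in untreated, ATRA and TPA cells, and TPA no longer stood above the other matrices.

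**Figure D5:**
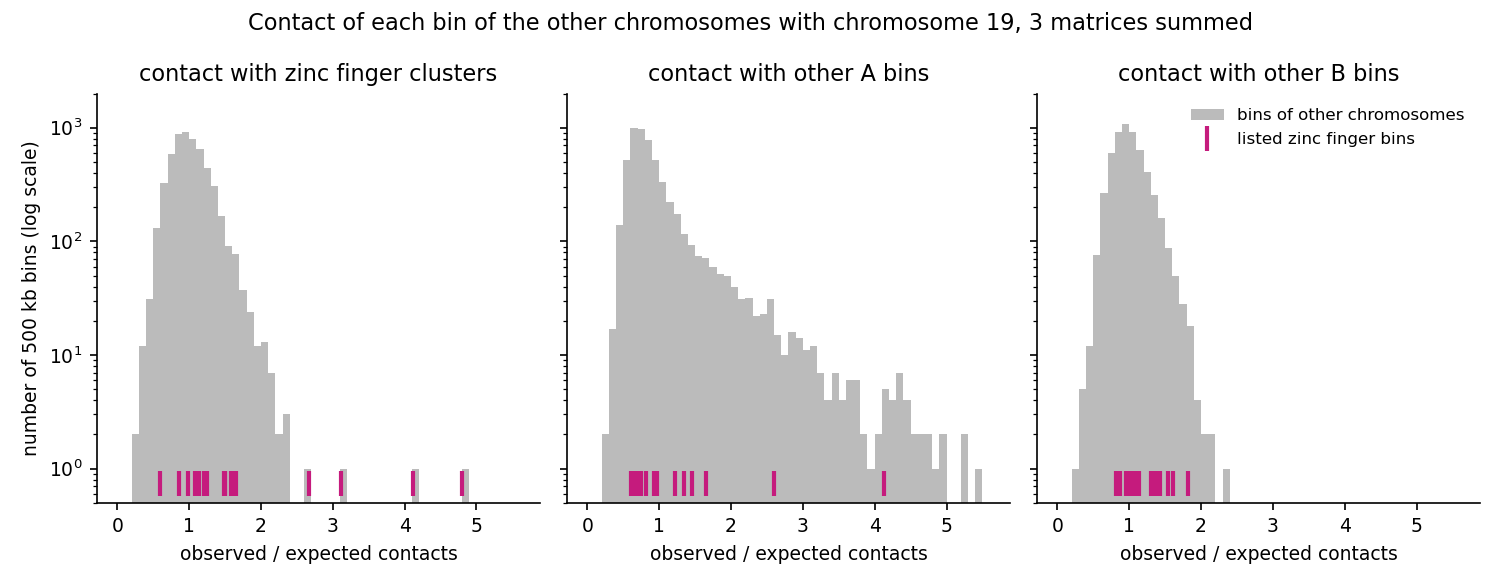
Number of bins of other chromosomes (log scale) by their observed over expected contacts with the zinc finger clusters, the other A bins and the other B bins of chromosome 19, in the 3 matrices summed; the ticks mark the 17 listed zinc finger bins. In the panel of the clusters 4 ticks, from 2.66 to 4.80, lie beyond all other bins, of which the highest is at 2.35.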

How the data were processed

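Hi-C contacts were aligned with Bowtie and binned with HOMER 4.7 on hg19, per the submitters' processing notes, and filtered with HiCUP, per the series' design text; the sources used here give no filter settings. The authors deposited 3 matrices of raw contact counts between 500 kb bins, per the file headers and the values, with the untreated and TPA libraries merged. Contacts within a bin, counted from both ends, were divided by 2. Autosomes and chromosome X were used (6083 bins). Of these, 5630 reached 0.2 of the median coverage in every matrix, and each matrix was balanced in 60 iterations. The expectation on chromosome 19 includes the clusters' own contacts, so it understates their excess. Between chromosomes it was the product of bin weights fitted to the contacts with other chromosomes. Intervals are exact Poisson or binomial, or normal on the log scale for differences of log ratios. PCR copies of a read pair are not independent, and the intervals do not cover them.

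Compartment signs were set on the summed matrix, by chromosomes 17 and 22 for chromosome 19 and by 16, 17, 20 and 22 for the rest; the lowest correlation behind a sign was 0.198, on chromosome 5. Called differences were 0.5 SD in score and 0.25 in log2 coverage. The members, the gene lists and the rule for named items (all clusters, the 3 highest and lowest cluster pairs, chromosomes and regions, and the extreme bins) were chosen with earlier results of these data known. Zinc finger genes were counted by the start of their symbol in RefSeq gene order, so those with other symbols were not counted. The functions were tested on simulated data. Python 3.11.15, numpy 2.4.6, scipy 1.17.1 and pandas 2.3.3 were used. Alternatives are given in the closing section.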

Additional observations from a re-analysis of the deposited data

How the results depend on the processing

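No paired analysis was possible because the numbered libraries of a condition are merged in 1 matrix. Each condition is 1 measurement, a bin pair far from the diagonal holds few contacts, and no value carries variation between cultures. Of 118 alternative values of the main measures, 60 stayed within the counting interval of the reported value (or within 1.5 times a share or count, or 0.05 of a median), 57 did not and 1 turned around; of the other 44, on single chromosomes, 38 stayed, 5 did not and 1 turned around.

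The main value that turned around was contact within clusters in untreated cells, which was 0.802 with raw contacts; ATRA and TPA were then 1.05 and 0.870. Raw contacts gave 1.34 for contacts between clusters in untreated cells and 1.71 and 2.23 for ATRA and TPA over untreated. With the distance mean of all chromosomes these were 2.14 in untreated cells and 1.65 for ATRA, and contacts within clusters were 1.66, 2.01 and 1.48 in untreated, ATRA and TPA cells; without adjacent bins they were 1.45, 1.41 and 1.37. Without cluster 2, contacts between clusters were 1.74 in untreated cells, with ratios of 1.77 and 1.96, and contacts within clusters in TPA were 0.966. The ratio to contacts with other B bins was 1.50, 2.07 and 2.49 with the 21 other B bins scored no higher than the highest cluster bin, an alternative chosen after seeing the data.

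The score depended most on the setting. With an eigenvector for each arm 40.7% of cluster bins were below 0 in untreated cells; 66.7% were lower by 0.5 or more in ATRA and 66.7% in TPA, with median differences of -2.23 and -1.83. Scored on contacts between chromosomes, 44.4% were below 0 in untreated cells and 11.1% were lower by 0.5 or more in TPA. Raw contacts gave 51.9% and 55.6% lower, with medians of -0.61 and -0.60, and leaving out cluster 2 41.2% and 47.1%, with medians of -0.39 and -0.45. In ATRA and TPA the cluster bins stayed below 0 in 81.5% or more under each alternative.

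Without cluster 2 the log2 contact with A over B was 0.29, -0.18 and -0.10 in untreated, ATRA and TPA cells, with differences of -0.47 and -0.39. With A and B as scores beyond 0.5 SD it was 0.14, -0.30 and -0.20, with differences of -0.44 and -0.35. Leaving out chromosomes 5, 14 and 21, chosen after seeing the data, or joined bin pairs (none of which holds a cluster bin) kept it within its intervals. The median log2 coverage ratio in ATRA without cluster 2 was -0.27, with 52.9% of bins at -0.25 or lower, and for contacts between chromosomes only 3.70% of bins were that low in TPA. The share of contacts with other chromosomes was 70.1%, 76.6% and 71.8% without same-bin contacts and 62.6%, 70.1% and 65.0% without cluster 2. Without it, 5 chromosomes had an interval below 1 in ATRA, and contact with chromosome 16 in the summed matrix turned around, at 1.00 in place of 0.965. Contacts with zinc finger regions elsewhere in TPA were 1.75 without cluster 2 and 1.79 without clusters 1 and 2; without the 3 highest regions they were 1.25, 1.25 and 1.22 in untreated, ATRA and TPA cells, the last alternatives being chosen after seeing the data. The cause of these shifts was not tested.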

Other observations

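Some zinc finger regions of other chromosomes also met each other above the expectation. Over the 76 pairs of listed regions on different chromosomes, 62, 61 and 61 contacts were counted in untreated, ATRA and TPA cells. These were 1.31 (1.00 to 1.68), 1.44 (1.10 to 1.85) and 1.28 (0.978 to 1.64) times expected, so the TPA interval included 1. The summed value was 1.34 (1.15 to 1.55). Relative to pairs of a region with the bins around the other region it was 1.36 times as high (1.16 to 1.59). The highest pair joined the ends of chromosomes 4 and 12, with 14 contacts, 10.2 times expected (5.57 to 17.1). Unlike the contacts between clusters of chromosome 19, this value was not higher in either treatment beyond its counting interval.

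Among the 20 bins of other chromosomes most in contact with the clusters, 6 were on chromosome 21, the chromosome they met most as a whole. The bin at 0.5 to 1.0 Mb of chromosome 4, next to the listed one, ranked 6 at 2.34 times expected.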
